A study of Rattus norvegicus with 20 samples.

Results

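Collagen chain genes encode the subunits of the collagens, the main structural proteins of the vessel wall, and their messages were followed here in the rat mesenteric artery. The members were the 38 genes of the array whose name has the form Col, a number, the letter a and a number, with 53 probes among 30367 distinct probes. Of these genes 32 were measured among 16424 genes tested in all: 9 fibrillar chains, 7 basement membrane chains and 16 other chains. A gene counts as measured if some group had its probe well above background on each of its 4 arrays. The other 6 were not: Col2a1, Col8a2, Col10a1, Col13a1, Col23a1 and Col24a1. Each gene is given by its brightest probe, as a level, the log2 signal relative to the 75th percentile of its array. Levels of different genes come from different probes and are not compared with each other.

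Collagen chains wind around each other in groups to form a helix, and each type of collagen has its own set of chains. Fibrillar collagens such as types I, III and V form the fibres that carry load in the adventitia and media, and basement membrane collagens such as type IV form the sheets that surround smooth muscle cells and underlie endothelium. The other types coat fibrils, form beaded filaments or short networks, or span cell membranes. In arteries under raised pressure the collagen of the wall is known to be remodelled.

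Total RNA of the whole mesenteric artery was hybridised to 20 single-colour arrays, 4 rats in each of 5 groups, labelled as biological replicates. SHRSP, the stroke-prone spontaneously hypertensive rat, and SHR, the spontaneously hypertensive rat, are hypertensive by inheritance and were untreated (SHRSP/Izm and SHR/Izm). The 1K1C (1-kidney 1-clip) and 2K1C (2-kidney 1-clip) groups were normotensive Wistar-Kyoto rats (WKY/Izm) kept for 3 weeks under these models of renal hypertension, in which a clip narrows a renal artery and the other kidney is removed (1K1C) or kept (2K1C). WKY/Izm rats titled as untreated were the controls. A treatment time of 3 weeks is given for them too, as for 1K1C and 2K1C, and none for SHR or SHRSP. All rats were labelled as 6 weeks old, and the labels do not say whether that was at operation or at sampling. Blood pressure was not examined here. The arrays lay on 3 slides, with 2K1C on the first, 1K1C and untreated WKY on the second, and SHR and SHRSP on the third. Slide and group cannot be told apart in SHRSP, SHR or 2K1C against untreated WKY or in 1K1C against 2K1C, nor slide row and group in SHRSP against SHR or in 1K1C against untreated WKY.

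Before the comparisons, 4 arrays stood apart from the other 16 by markers of mesothelium, the cell sheet that covers the mesentery. Of the 8 markers, 5 were measured. Their mean level was -0.23 in SHR replicate 1, -0.47 in untreated WKY replicate 2, -1.1 in 1K1C replicate 2 and -1.51 in untreated WKY replicate 3, against -5.33 to -2.7 in the others. By group it ran from -4.78 to -3.8 in SHRSP, -4.7 to -0.23 in SHR, -5.05 to -1.1 in 1K1C, -5.33 to -2.7 in 2K1C and -4.41 to -0.47 in untreated WKY. All 8 smooth muscle markers were well above background on all 20 arrays. Their mean level ran from 3.45 to 4.57 in SHRSP, 2.54 to 4.59 in SHR, 0.65 to 3.65 in 1K1C, 3.13 to 4.7 in 2K1C and 3.12 to 4.12 in untreated WKY. All 8 markers of Schwann cells, the sheath cells of nerves, were measured, at 1.06 to 1.93 in SHRSP, 0.11 to 1.85 in SHR, -0.75 to 1.93 in 1K1C, 0.72 to 2.32 in 2K1C and -0.41 to 2.21 in untreated WKY. The Schwann level was lowest in 1K1C replicate 2, untreated WKY replicates 3 and 2 and SHR replicate 1, which are the same 4 arrays. White adipocyte markers were highest on them, at 3.21, 2.78, 2.87 and 3.13 in that order, against at most 2.55 on the others. These arrays are thus set apart by more than mesothelium markers. The mean levels of the other lists, over all arrays, were 2.46 to 3.61 for fibroblasts (7 of 8 markers), -0.43 to 0.70 for endothelium (8 of 8), 0.64 to 3.21 for white adipocytes (8 of 8), -3.38 to 1.74 for brown adipocytes (6 of 8), -1.86 to 4.74 for neurons (5 of 8), -6.15 to 1.62 for pancreas (8 of 8), -1.08 to 1.32 for macrophages (8 of 8), -5.1 to 1.71 for lymphocytes (4 of 8) and 0.28 to 3.08 for red blood cells (5 of 8). The neuron level was 4.74, 1.22, 1.98 and -0.85 in untreated WKY replicates 1 to 4. It ran from -1.31 to -0.86 in SHRSP, -1.86 to -0.81 in SHR, -1.12 to -0.80 in 1K1C and -1.39 to 1.73 in 2K1C. Untreated WKY replicate 1 also had the highest brown adipocyte level, 1.74. Without the 4 arrays of high mesothelium markers, replicates 1 and 4 are the untreated WKY arrays left. Among the markers on the array, Elovl3 and Epb42 were well above background on 0 arrays. The part of these cells in the collagen results was not tested. Many results are given with and without the 4 arrays, and results given once can also depend on them. In whole tissue, fewer cells of a type and less RNA per cell cannot be told apart.

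**Figure D1:**
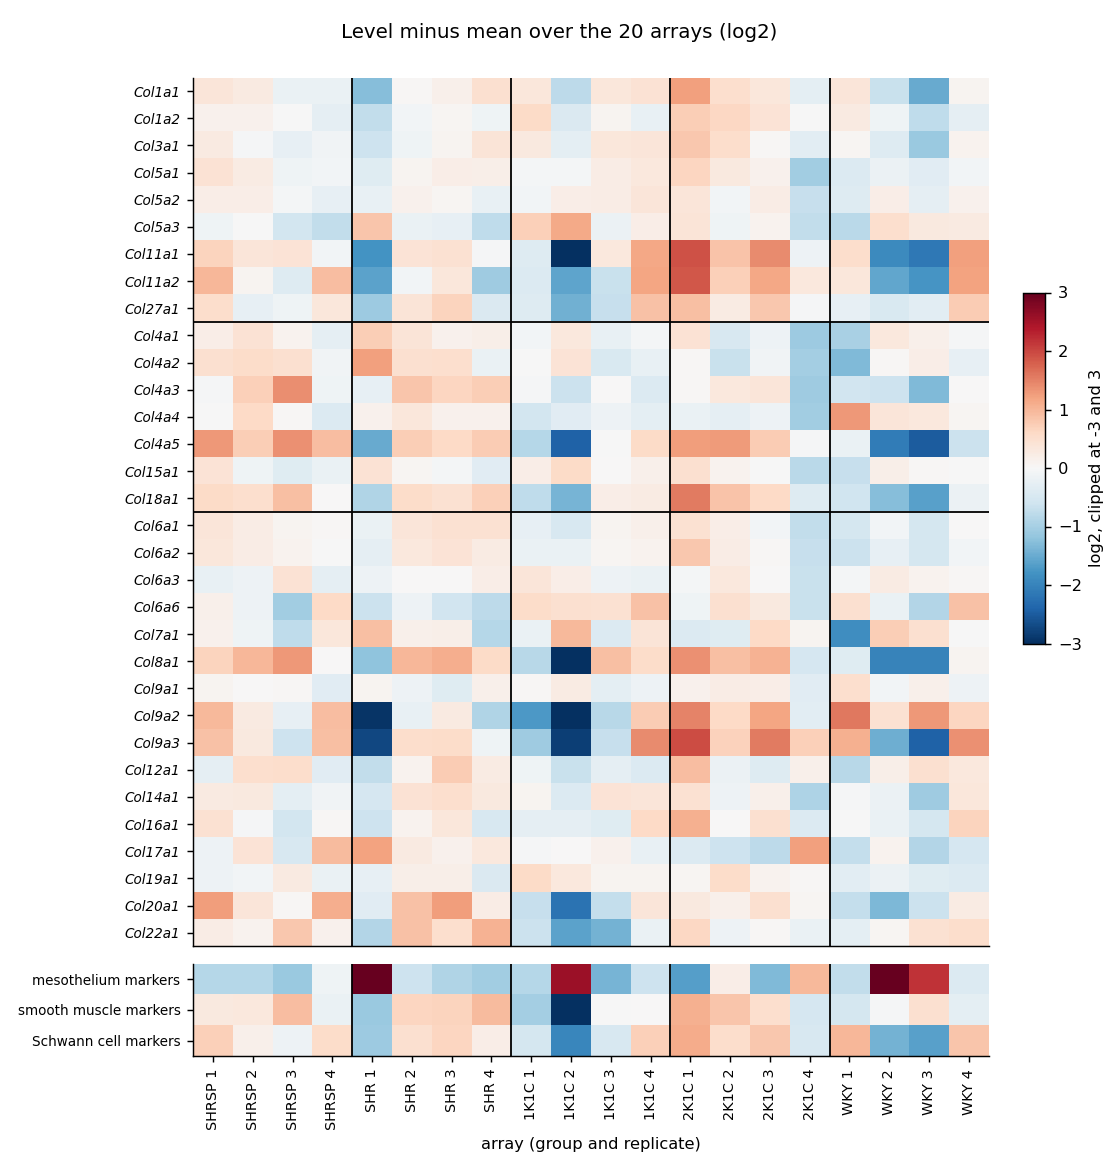
Level of each of the 32 measured collagen chains on each of the 20 arrays, minus its mean over all arrays (log2, colour clipped at -3 and 3), in rows for fibrillar, basement membrane and other chains from top to bottom, with the mean levels of 3 marker lists below. Blue columns for Col4a5, Col8a1 and Col11a1 fall on SHR 1, 1K1C 2, WKY 2 and WKY 3, where the mesothelium markers are red.

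Against untreated WKY, only the basement membrane chain gene Col4a5 passed the test, higher in SHRSP, and 0 chains passed in SHR, 1K1C or 2K1C. Calls rest on an adjusted p under 0.05 from limma, by Benjamini-Hochberg over the whole set of 16424 genes. In SHRSP 1 of 32 chains was called, against 2.39% of all genes. In SHR the count was 0, against 1.84% of all genes. In 1K1C it was 0 against 0%, and in 2K1C 0 against 0.0122%. At an unadjusted p under 0.05, SHRSP had 6 chains higher, against 9.30% of all genes, and 0 lower, against 7.35%. SHR had 8 higher, against 7.36%, and 1 lower, against 6.62%. In 1K1C there was 1 higher, against 4.89%, and 3 were lower, against 4.20%. In 2K1C there were 6 higher, against 10.8%, and 1 lower, against 11.2%. Without the 4 arrays, chains at an unadjusted p under 0.05 in either direction were 9.38% in SHRSP, 21.9% in SHR, 12.5% in 1K1C and 12.5% in 2K1C, where 10.8%, 13.2%, 7.4% and 9.8% of all genes were. Chains with all 4 arrays above all of untreated WKY numbered 4 in SHRSP, against 6.36% of all genes, 1 in SHR, against 3.34%, 2 in 1K1C, against 2.28%, and 2 in 2K1C, against 3.69%. Chains with all 4 arrays below them numbered 0 in SHRSP, against 4.96%, and 1 each in SHR, 1K1C and 2K1C, against 2.80%, 1.53% and 4.07%. The median difference of the 32 chains was 0.27 in SHRSP, 0.24 in SHR, 0.25 in 1K1C and 0.28 in 2K1C on the log2 scale, and the median over all genes was 0.00, 0.02, 0.10 and 0.03. The 4 comparisons share the untreated WKY arrays. Without the 4 arrays of high mesothelium markers, 0 chains were called in any of them. With array weights, which down-weight arrays far from their group, the counts were 15 in SHRSP, 18 in SHR, 1 in 1K1C and 14 in 2K1C, with 5540, 7659, 586 and 4805 of all genes called. Among the untreated WKY arrays these weights were highest for replicates 2 and 3, which are among the 4 arrays of high mesothelium markers.

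**Figure D2:**
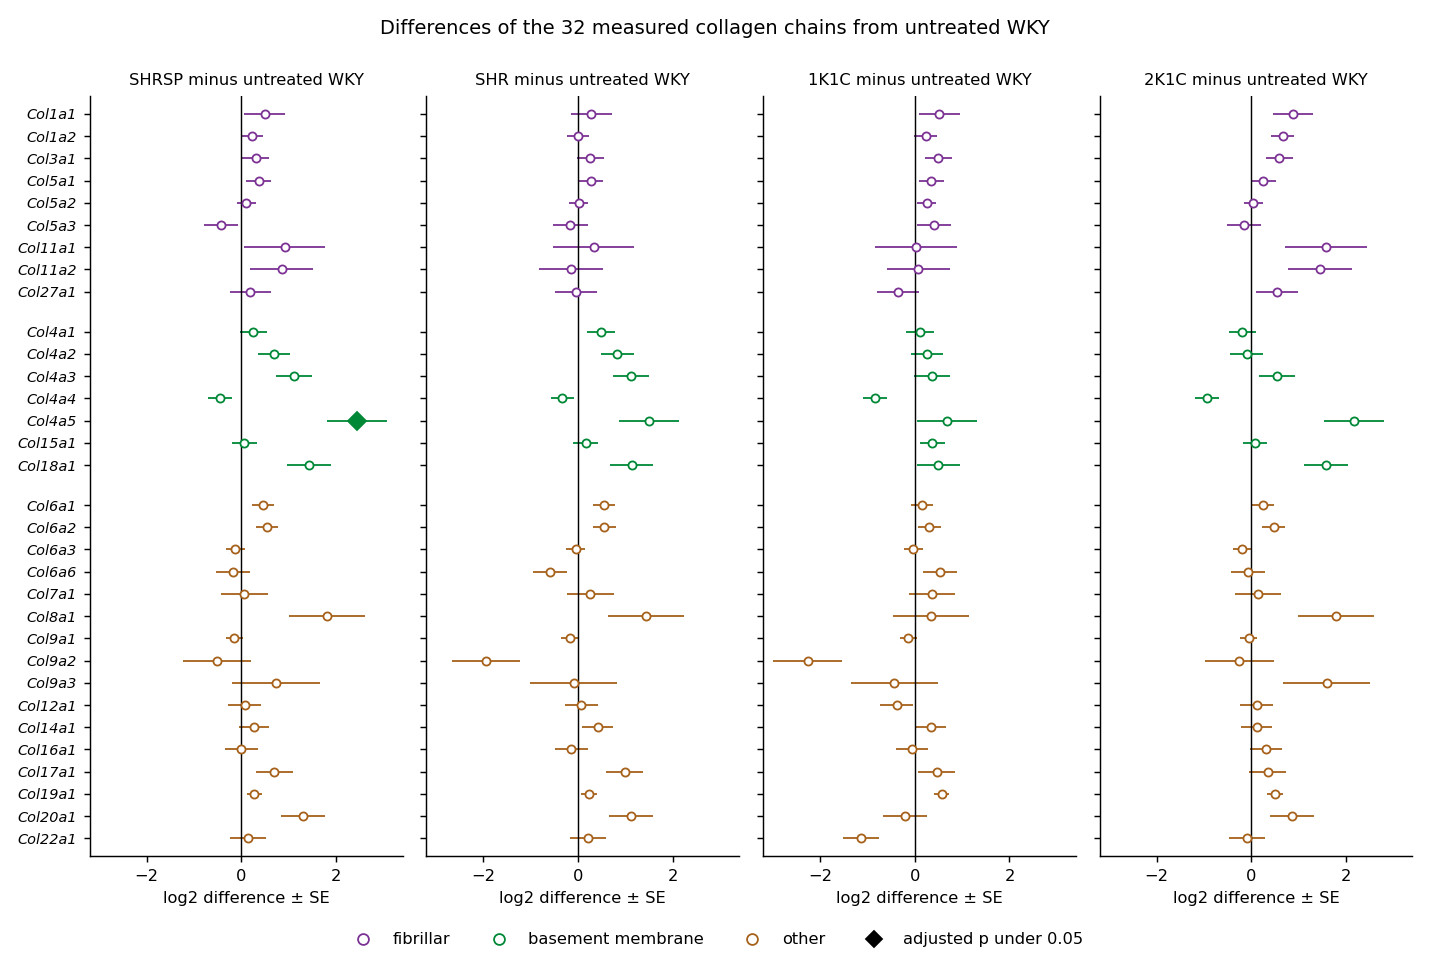
Log2 difference of each measured collagen chain from untreated WKY (x axis, ± SE of the limma fit) in SHRSP, SHR, 1K1C and 2K1C, by class. The filled diamond, Col4a5 in SHRSP at 2.44, is the only point with an adjusted p under 0.05, and the bars of Col9a3, Col11a1, Col8a1, Col9a2 and Col11a2 are the widest.

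Among the basement membrane chains, Col4a5 rose in SHRSP, and the class had 6 of 7 members above untreated WKY in SHRSP (median 0.68), 6 in SHR (0.83), 6 in 1K1C (0.36) and 4 in 2K1C (0.08). Of all genes, 50.5%, 52.6%, 65.4% and 53.5% were above untreated WKY in SHRSP, SHR, 1K1C and 2K1C. Leaving out the 4 arrays, 6 of the 7 chains were above it in each comparison. Their medians were then 0.76 in SHRSP, 0.97 in SHR, 0.32 in 1K1C and 0.31 in 2K1C. Of 16424 genes, 8812, 8539, 10585 and 9008 were above it without these arrays, in the same order of groups. Col4a5 encodes a type IV chain that is known from kidney glomeruli and, with the alpha-6 chain, from the basement membranes of smooth muscle. Its probe maps to chrX:36919794-36919853 (rn4, minus strand). It is shown beside the probe of Col4a3, at chr9:82036908-82036967 (rn4, plus strand), since the related type IV chains share sequence. Capitals mark the 33 identical bases of 47 aligned without gaps (70.2%).
Col4a5 probe: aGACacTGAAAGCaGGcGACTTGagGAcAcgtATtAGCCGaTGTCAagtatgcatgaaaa
Col4a3 probe: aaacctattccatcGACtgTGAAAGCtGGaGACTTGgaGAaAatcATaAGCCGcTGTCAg

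The level of Col4a5 was 1.78, 1.21, 1.84 and 1.41 in SHRSP, -1.04, 1.22, 1.07 and 1.23 in SHR, -0.38, -1.94, 0.47 and 1.04 in 1K1C, 1.72, 1.75, 1.24 and 0.44 in 2K1C, and 0.28, -1.62, -2.02 and -0.16 in untreated WKY, in the order of replicates 1 to 4, as for all values by array that follow. All 4 SHRSP arrays lay above all 4 untreated WKY arrays. Differences are on the log2 scale with the SE of the fit. That of Col4a5 was 2.44 ± 0.63 in SHRSP (5.43-fold, adjusted p = 0.0498), with means of 1.56 ± 0.30 in SHRSP and -0.88 ± 1.11 in untreated WKY (SD, n = 4 each). In 2K1C the groups did not overlap either, at 2.17 ± 0.63, which did not pass the test (adjusted p = 0.11). The differences were 1.5 ± 0.63 in SHR (adjusted p = 0.286) and 0.68 ± 0.63 in 1K1C (adjusted p = 0.719). The lowest levels in SHR, 1K1C and untreated WKY were those of the 4 arrays with high mesothelium markers. Without these arrays the SHRSP difference was 1.5 ± 0.38 and no longer passed (adjusted p = 0.122), with 2 untreated WKY arrays left. It was 1.11 in SHR, 0.32 in 1K1C and 1.22 in 2K1C without them. The SHRSP difference also no longer passed without any single SHRSP array or without untreated WKY replicate 2 or 3, at adjusted p between 0.0888 and 0.186. The array also carries a probe named LOC363458, annotated as like the alpha-6 type IV chain, which the name rule left out. Chosen after its values were seen, it had a level of 3.18, 2.03, 2.22 and 2.76 in SHRSP, and 2.05, -0.95, -1.87 and 0.81 in untreated WKY, with an overlap of 1 array in each group. It differed by 2.54 ± 0.94 between SHRSP and untreated WKY (adjusted p = 0.18), and by 1.12 ± 0.72 without the 4 arrays, which include untreated WKY replicates 2 and 3 (adjusted p = 0.631).

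**Figure D3:**
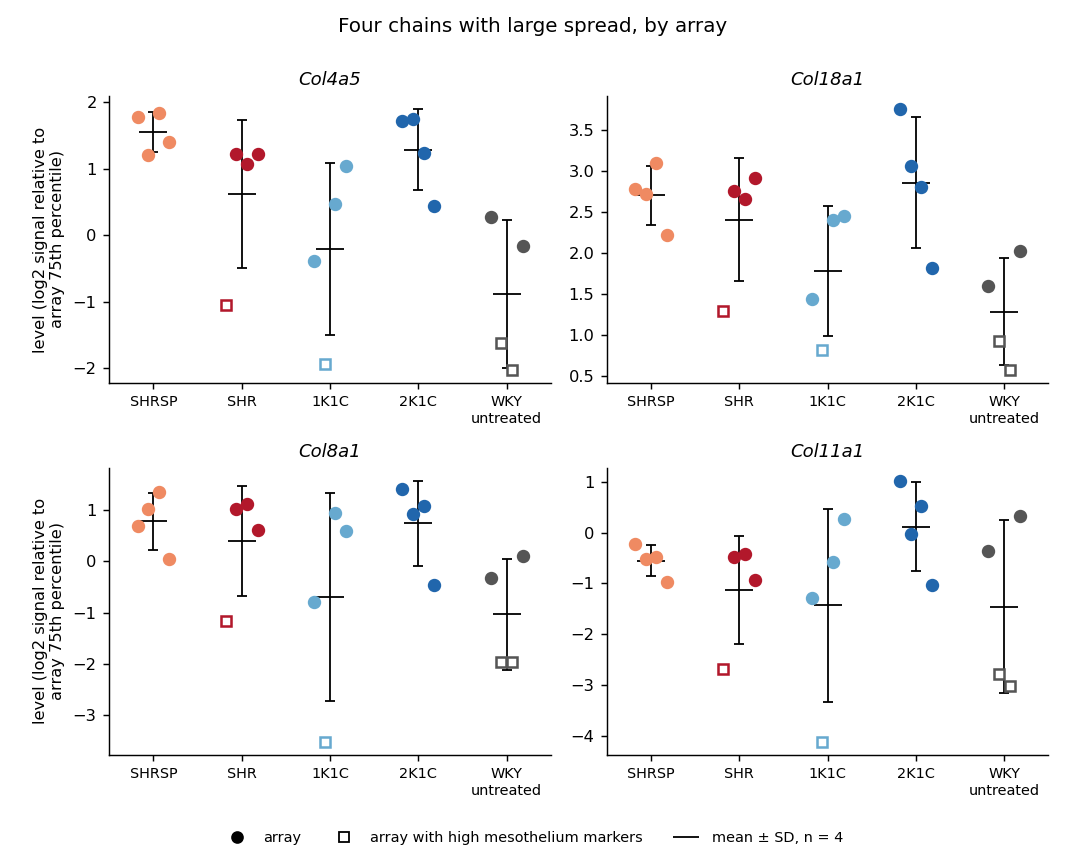
Levels of Col4a5, Col18a1, Col8a1 and Col11a1 on each array (log2, relative to the 75th percentile of the array) in SHRSP, SHR, 1K1C, 2K1C and untreated WKY, with mean ± SD. Open squares are the 4 arrays with high mesothelium markers, which are the lowest of their groups in each panel.

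Col18a1 encodes type XVIII collagen of basement membranes, the source of the fragment endostatin. Its probe, the sequence that the signal of this chain rests on, maps to chr20:11981417-11981476 (rn4, plus strand).
Col18a1 probe: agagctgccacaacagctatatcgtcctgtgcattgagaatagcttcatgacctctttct

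The level of Col18a1 was 2.78, 2.72, 3.1 and 2.23 in SHRSP, 1.3, 2.76, 2.66 and 2.92 in SHR, 1.44, 0.82, 2.41 and 2.45 in 1K1C, 3.76, 3.06, 2.81 and 1.82 in 2K1C, and 1.6, 0.93, 0.58 and 2.03 in untreated WKY. SHRSP arrays did not overlap untreated WKY arrays, while 1 of 4 in each of SHR and 2K1C reached into their range. The differences were 1.42 ± 0.46 in SHRSP (adjusted p = 0.118), 1.13 ± 0.46 in SHR (0.263), 0.50 ± 0.46 in 1K1C (0.715) and 1.58 ± 0.46 in 2K1C (0.11), and none passed the test. The 2K1C difference was called without untreated WKY replicate 4, at 1.82 (adjusted p = 0.0401). The difference over the other 16 arrays was 0.90 ± 0.42 in SHRSP, 0.97 ± 0.45 in SHR, 0.29 ± 0.45 in 1K1C and 1.05 ± 0.42 in 2K1C. The level of Col15a1, which encodes the related type XV collagen, was 5.21, 4.68, 4.45 and 4.6 in SHRSP, 5.25, 4.87, 4.74 and 4.47 in SHR, 5.01, 5.38, 4.83 and 4.96 in 1K1C, 5.3, 4.92, 4.8 and 4.01 in 2K1C, and 4.11, 4.98, 4.84 and 4.79 in untreated WKY. The groups overlapped in every comparison, and the smallest adjusted p was 0.554.

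Col4a1 and Col4a2 encode the chains of the type IV collagen of nearly all basement membranes. Col4a1 had a level of 5.1, 5.32, 5.01 and 4.62 in SHRSP, 5.63, 5.28, 5.02 and 5.06 in SHR, 4.8, 5.2, 4.66 and 4.84 in 1K1C, 5.32, 4.41, 4.75 and 3.8 in 2K1C, and 3.92, 5.22, 5.05 and 4.86 in untreated WKY. Col4a2 had a level of 0.74, 0.82, 0.75 and 0.15 in SHRSP, 1.49, 0.75, 0.76 and 0.07 in SHR, 0.25, 0.67, -0.20 and 0.04 in 1K1C, 0.31, -0.40, 0.16 and -0.75 in 2K1C, and -1.06, 0.31, 0.47 and 0.01 in untreated WKY. In both genes untreated WKY replicate 1 was the lowest of its group, and in 2K1C replicate 4 was. Col4a2 differed by 0.68 ± 0.34 in SHRSP (adjusted p = 0.324) and 0.83 ± 0.34 in SHR (0.266). Col4a1 differed by 0.25 ± 0.29 in SHRSP (0.71) and 0.48 ± 0.29 in SHR (0.498). Over the other 16 arrays, Col4a2 differed by 1.14 ± 0.35 in SHRSP (adjusted p = 0.204) and 1.05 ± 0.37 in SHR (0.239), and Col4a1 by 0.62 ± 0.34 in SHRSP (0.555) and 0.73 ± 0.36 in SHR (0.41). A second probe of Col4a1, at chr16:83146135-83146194 (rn4, plus strand), gave -0.09 in SHRSP and -0.02 in SHR, so the probes disagree in sign there. It is shown because the capitals mark GG, the letters that start glycine codons, at 6 of 6 positions 9 bases apart, the spacing of glycine in the repeat of a collagen helix. It was the only 1 of the 53 collagen probes with GG at every such position.
Col4a1 second probe: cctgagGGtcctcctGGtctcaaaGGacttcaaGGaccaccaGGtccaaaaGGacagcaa

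Col4a1 and Col4a2 lie head to head on chromosome 16, with start sites 77 bases apart in the RefSeq table of build GRCr8. The stretch between them is shown since the genes form such a pair, and its part in their levels was not tested. It lies at chr16:84885521-84885596 (GRCr8, plus strand). Capitals mark GGGCGG on the minus strand, the core of the GC box.
Between Col4a2 and Col4a1: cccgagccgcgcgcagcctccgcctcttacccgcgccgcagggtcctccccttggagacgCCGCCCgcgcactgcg

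GGGCGG, searched on both strands, is found in the 76 bases before the start of 18.1% of 33469 promoters. The letters CCAAT and CCCTCCCC, also searched on both strands and not overlapping GGGCGG, are not in this stretch, and are found in 13% and 3.99% of promoters. Among the members, 32 of 38 had a promoter in the table, of which 14 held GGGCGG, 2 held CCAAT and 2 held CCCTCCCC.

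Col4a3 and Col4a4 encode chains known mainly from the kidney. Col4a3 differed by 1.11 ± 0.38 in SHRSP (adjusted p = 0.143) and 1.12 ± 0.38 in SHR (0.161). Without the 4 arrays it differed by 0.76 ± 0.43 in SHRSP and 1.02 ± 0.45 in SHR. Col4a4 had a level of -4.48, -3.88, -4.44 and -4.88 in SHRSP, -4.34, -4.12, -4.34 and -4.33 in SHR, -5.01, -4.8, -4.62 and -4.77 in 1K1C, -4.68, -4.73, -4.62 and -5.52 in 2K1C, and -3.17, -4.11, -4.16 and -4.4 in untreated WKY. In 1K1C and in 2K1C all arrays lay below those of untreated WKY. The differences were -0.84 ± 0.25 in 1K1C (adjusted p = 0.261) and -0.93 ± 0.25 in 2K1C (0.0995). The 2K1C difference was called without untreated WKY replicate 4, at -1.08 (adjusted p = 0.0317).

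Among the fibrillar chains 0 of 9 were called in any comparison. Of all genes, 50.5% in SHRSP, 52.6% in SHR, 65.4% in 1K1C and 53.5% in 2K1C were above untreated WKY. The fibrillar members above untreated WKY numbered 8 of 9 in SHRSP (median 0.30), 6 in SHR (0.01), 8 in 1K1C (0.25) and 8 in 2K1C (0.59). Without the 4 arrays they were 3 in SHRSP (median -0.12), 3 in SHR (-0.04), 6 in 1K1C (0.16) and 9 in 2K1C (0.22).

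Col1a1 and Col1a2 encode the chains of type I collagen, the main load-bearing fibre. Col1a1 had a level of 6.2, 6.11, 5.64 and 5.64 in SHRSP, 4.57, 5.88, 5.98 and 6.32 in SHR, 6.18, 5.05, 6.18 and 6.26 in 1K1C, 7.06, 6.35, 6.18 and 5.54 in 2K1C, and 6.21, 5.17, 4.32 and 5.91 in untreated WKY. The lowest arrays of SHR, 1K1C and untreated WKY were again arrays with high mesothelium markers. Col1a2 had a level of 6.3, 6.3, 6.15 and 5.89 in SHRSP, 5.42, 6.09, 6.21 and 6.03 in SHR, 6.74, 5.73, 6.25 and 5.94 in 1K1C, 6.89, 6.79, 6.57 and 6.16 in 2K1C, and 6.42, 6.04, 5.41 and 5.88 in untreated WKY. Col3a1, whose product forms the type III fibres of distensible vessels, had a level of 6.84, 6.55, 6.32 and 6.47 in SHRSP, 5.96, 6.44, 6.66 and 6.96 in SHR, 6.88, 6.28, 6.91 and 6.93 in 1K1C, 7.39, 7.1, 6.6 and 6.25 in 2K1C, and 6.63, 6.19, 5.47 and 6.69 in untreated WKY. In these genes the arrays of 2K1C and untreated WKY overlapped. The differences in 2K1C were 0.88 ± 0.43 for Col1a1 (adjusted p = 0.239), 0.66 ± 0.24 for Col1a2 (0.152) and 0.59 ± 0.29 for Col3a1 (0.238). Without the 4 arrays they were 0.23 ± 0.31, 0.45 ± 0.25 and 0.17 ± 0.26. In 1K1C, Col1a1 had the largest fibrillar difference, 0.52 ± 0.43 (adjusted p = 0.696). The difference without the 4 arrays was 0.15 ± 0.33, smaller than that of Col11a2 at -0.74 ± 0.61. A second probe of Col1a1 ran with the first over the arrays and gave 0.93 in SHRSP, where the first gave 0.49, and the first gave -0.16 there without the 4 arrays.

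**Figure D4:**
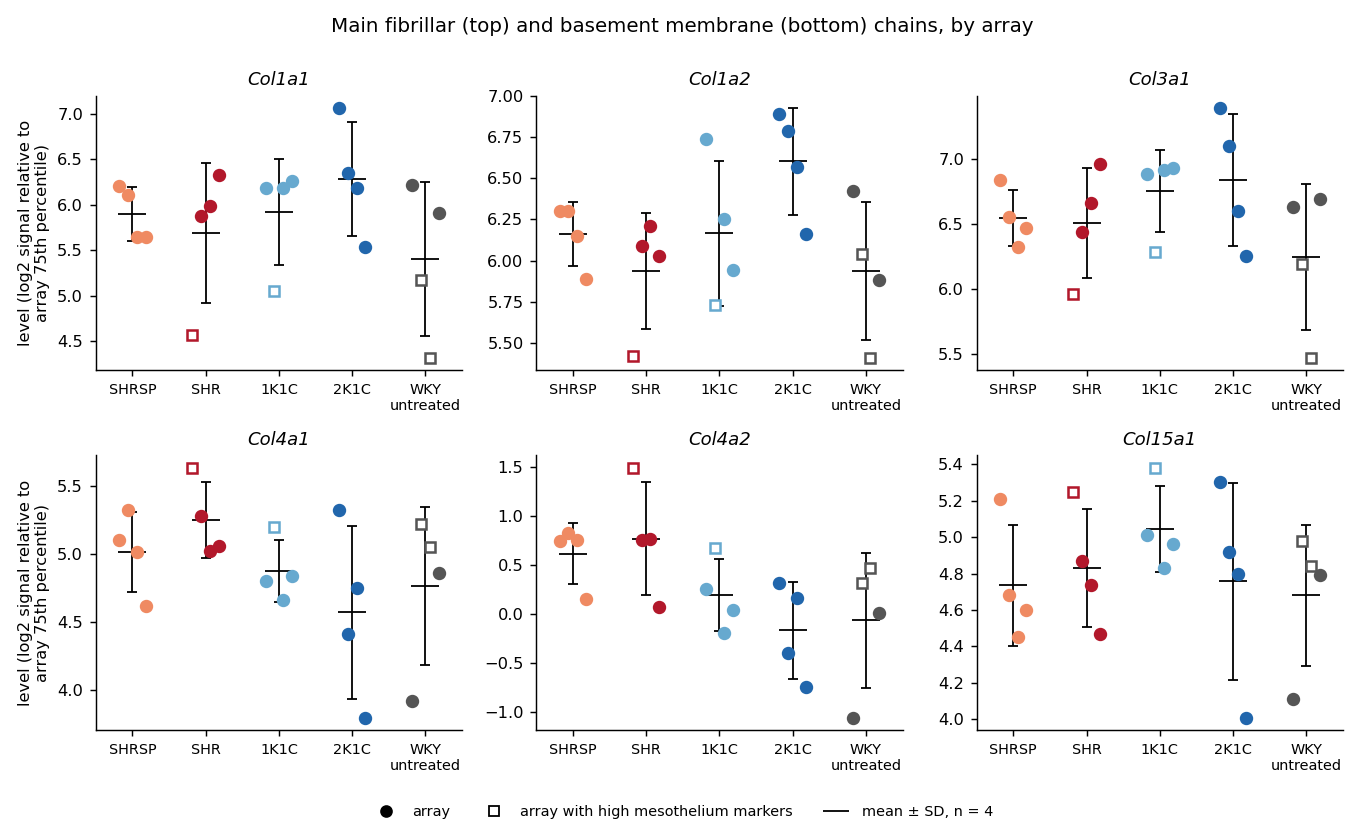
Levels of Col1a1, Col1a2 and Col3a1 (top) and Col4a1, Col4a2 and Col15a1 (bottom) on each array (log2, relative to the 75th percentile of the array), with mean ± SD, n = 4. The open squares, arrays with high mesothelium markers, lie low for Col1a1 and Col3a1 and are the highest of their groups for Col4a1 and Col4a2, and the groups overlap in most comparisons.

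Col5a1 encodes a chain of type V collagen, which starts fibrils and limits their width. Its level was 1.53, 1.34, 0.97 and 1.01 in SHRSP, 0.74, 1.19, 1.3 and 1.28 in SHR, 1.03, 1.04, 1.32 and 1.41 in 1K1C, 1.74, 1.39, 1.22 and 0.05 in 2K1C, and 0.69, 0.93, 0.77 and 1.02 in untreated WKY. The 1K1C arrays lay just above all untreated WKY arrays, at a difference of 0.35 ± 0.26 (adjusted p = 0.674). The other type V chains, Col5a2 and Col5a3, had differences between -0.43 and 0.40 from untreated WKY, of which the lowest, Col5a3 in SHRSP, was -0.10 without the 4 arrays.

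Col11a1 and Col11a2 encode chains of type XI collagen, known best from cartilage fibrils. Col11a1 had the largest fibrillar difference from untreated WKY in SHRSP, SHR and 2K1C. Its level was -0.23, -0.52, -0.47 and -0.97 in SHRSP, -2.69, -0.47, -0.42 and -0.93 in SHR, -1.28, -4.12, -0.58 and 0.27 in 1K1C, 1.02, -0.03, 0.53 and -1.03 in 2K1C, and -0.35, -2.79, -3.02 and 0.34 in untreated WKY. The 4 arrays with high mesothelium markers were the lowest of all 20, between -4.12 and -2.69, and the groups overlapped in every comparison. The differences were 0.91 ± 0.86 in SHRSP (adjusted p = 0.627), 0.33 ± 0.86 in SHR (0.893) and 1.58 ± 0.86 in 2K1C (0.282). Without the 4 arrays they were -0.55 ± 0.49, -0.61 ± 0.51 and 0.13 ± 0.49, so that the sign turned in SHRSP and SHR. Both other probes of Col11a1 ran with the first. Col11a2 had a level of -0.32, -1.24, -1.7 and -0.38 in SHRSP, -2.92, -1.39, -0.96 and -2.37 in SHR, -1.71, -2.9, -1.97 and -0.13 in 1K1C, 0.56, -0.60, -0.16 and -1.0 in 2K1C, and -0.97, -2.88, -3.07 and -0.10 in untreated WKY. Its difference in 2K1C was 1.45 ± 0.67 (adjusted p = 0.213), and 0.23 ± 0.58 without the 4 arrays. Col27a1, another cartilage fibril chain, differed by -0.35 to 0.54 from untreated WKY, where the highest, in 2K1C, was 0.22 without the 4 arrays.

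Among the 16 other chains 0 were called in any comparison. Of all genes, 50.5% in SHRSP, 52.6% in SHR, 65.4% in 1K1C and 53.5% in 2K1C were above untreated WKY. The members of this class above untreated WKY numbered 11 of 16 in SHRSP (median 0.21), 10 in SHR (0.22), 8 in 1K1C (0.06) and 11 in 2K1C (0.19). Over the other 16 arrays they were 9 in SHRSP (0.27), 11 in SHR (0.48), 9 in 1K1C (0.01) and 9 in 2K1C (0.11). Col8a1 encodes the chain of a short network-forming collagen that smooth muscle and endothelial cells make. Its probe at chr11:43733411-43733470 (rn4, plus strand) is shown with GG in capitals, present at 4 of 6 positions 9 bases apart.
Col8a1 probe: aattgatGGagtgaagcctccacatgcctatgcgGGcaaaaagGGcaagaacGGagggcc

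The level of Col8a1 was 0.70, 1.03, 1.35 and 0.04 in SHRSP, -1.17, 1.03, 1.12 and 0.61 in SHR, -0.79, -3.52, 0.94 and 0.59 in 1K1C, 1.42, 0.93, 1.08 and -0.46 in 2K1C, and -0.32, -1.96, -1.96 and 0.11 in untreated WKY. It was lowest in 1K1C replicate 2 and in untreated WKY replicates 2 and 3, and SHR replicate 1 was the lowest of SHR. The groups overlapped in every comparison. The differences were 1.81 ± 0.80 in SHRSP (adjusted p = 0.266), 1.43 ± 0.80 in SHR (0.448), 0.34 ± 0.80 in 1K1C (0.898) and 1.78 ± 0.80 in 2K1C (0.207). Without the 4 arrays they were 0.88 ± 0.53 in SHRSP, 1.02 ± 0.55 in SHR and 0.85 ± 0.53 in 2K1C.

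Type VI collagen forms beaded filaments that link cells to fibres, and Col6a1, Col6a2 and Col6a3 encode its main chains. Col6a1 had a level of 2.84, 2.7, 2.57 and 2.52 in SHRSP, 2.28, 2.85, 2.94 and 2.93 in SHR, 2.23, 2.01, 2.57 and 2.64 in 1K1C, 2.94, 2.68, 2.39 and 1.74 in 2K1C, and 1.96, 2.39, 1.96 and 2.5 in untreated WKY. SHRSP arrays of Col6a1 and Col6a2 did not overlap those of untreated WKY, at differences of 0.45 ± 0.23 (adjusted p = 0.331) and 0.54 ± 0.24 (0.268). In SHR both differed by 0.55, with SE of 0.23 and 0.24 (adjusted p = 0.282 and 0.306). Col6a3 had a level of -2.5, -2.43, -1.85 and -2.54 in SHRSP, -2.43, -2.26, -2.26 and -2.07 in SHR, -1.91, -2.09, -2.44 and -2.48 in 1K1C, -2.33, -1.97, -2.28 and -2.96 in 2K1C, and -2.35, -2.04, -2.18 and -2.24 in untreated WKY. Its differences from untreated WKY lay between -0.19 and -0.03. Col6a6, a further chain of the family, cleared background on every array only in 1K1C and 2K1C, and its differences ran from -0.60 in SHR to 0.53 in 1K1C, which were -1.18 and -0.05 without the 4 arrays.

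Several members coat fibrils without forming fibres of their own. Col12a1 had a level of 0.11, 0.89, 0.91 and 0.04 in SHRSP, -0.35, 0.50, 1.16 and 0.64 in SHR, 0.27, -0.27, 0.13 and -0.01 in 1K1C, 1.32, 0.21, 0.01 and 0.55 in 2K1C, and -0.45, 0.56, 0.86 and 0.71 in untreated WKY. Col14a1 had a level of 4.77, 4.79, 4.19 and 4.39 in SHRSP, 3.99, 4.92, 5.0 and 4.78 in SHR, 4.58, 4.09, 4.91 and 4.85 in 1K1C, 4.94, 4.33, 4.65 and 3.57 in 2K1C, and 4.46, 4.32, 3.43 and 4.84 in untreated WKY. Groups overlapped for both genes, and the smallest adjusted p was 0.432 for Col12a1 and 0.612 for Col14a1. Col9a2, a chain of type IX collagen known from cartilage, had a level of -1.66, -2.35, -2.86 and -1.7 in SHRSP, -5.57, -2.85, -2.36 and -3.53 in SHR, -4.34, -5.9, -3.46 and -1.87 in 1K1C, -1.14, -2.02, -1.44 and -2.93 in 2K1C, and -1.05, -2.16, -1.33 and -1.98 in untreated WKY. All SHR arrays lay below all untreated WKY arrays, and 1 of 4 1K1C arrays was not well above background. The differences were -1.95 ± 0.72 in SHR (adjusted p = 0.207) and -2.26 ± 0.72 in 1K1C (0.277). Without the 4 arrays they were -1.4 ± 0.66 in SHR and -1.71 ± 0.66 in 1K1C. Its partner chains Col9a1 and Col9a3 differed by -0.18 ± 0.18 and -0.09 ± 0.92 in SHR. Without the 4 arrays the partner chains differed by -0.3 ± 0.24 and -0.91 ± 0.64 there. Col9a3 was well above background on 3 of 4 SHR arrays and 2 of 4 untreated WKY arrays. Col19a1 had a level of -2.21, -2.15, -1.8 and -2.26 in SHRSP, -2.32, -1.9, -1.9 and -2.5 in SHR, -1.5, -1.76, -1.98 and -1.99 in 1K1C, -2.0, -1.52, -1.96 and -2.04 in 2K1C, and -2.38, -2.25, -2.42 and -2.47 in untreated WKY. In 1K1C and in 2K1C all its arrays lay above those of untreated WKY, at 0.57 ± 0.16 (adjusted p = 0.244) and 0.50 ± 0.16 (0.128). Its spread within groups was the smallest of the 32 chains, an SD of 0.23 where the median over all genes was 0.31.

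Of the remaining chains, Col20a1 differed by 1.3 ± 0.46 in SHRSP (adjusted p = 0.166) and 1.12 ± 0.46 in SHR (0.278). It was well above background on 3 of 4 untreated WKY arrays. Without the 4 arrays of high mesothelium markers it differed by 0.91 ± 0.41 in SHRSP and 1.01 ± 0.44 in SHR. Col22a1 differed by -1.14 ± 0.38 in 1K1C (0.298), where 1 of 4 arrays was well above background. Col17a1, which encodes a collagen that spans the membrane of epithelial cells, differed by 0.98 ± 0.39 in SHR (0.249), where its arrays did not overlap those of untreated WKY. Col7a1, the anchoring fibril chain of skin, and Col16a1 had adjusted p of 0.806 or more and 0.568 or more in the 6 comparisons. The spread within groups differed between chains. It was largest for Col9a3 (SD 1.4), Col11a1 (1.31), Col8a1 (1.22) and Col9a2 (1.1), with medians of 0.54 for fibrillar, 0.51 for basement membrane and 0.53 for other chains.

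Between the hypertensive strains, 0 of 32 chains were called in SHRSP against SHR, where 0.359% of all genes were. At an unadjusted p under 0.05 there were 0 chains higher, against 2.02% of all genes, and 0 lower, against 1.55%. The groups overlapped for every chain, where 1.64% of all genes had SHRSP wholly above SHR and 1.86% wholly below. The median difference was 0.04, and -0.01 over all genes. The largest differences by class were 1.0 ± 0.67 for Col11a2, 0.94 ± 0.63 for Col4a5 and 1.44 ± 0.72 for Col9a2, each with an adjusted p of 1. Without SHR replicate 1 these were smaller, at 0.66, 0.38 and 0.77.

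Between the operations, 0 of 32 chains were called in 1K1C against 2K1C, and 0% of all genes. At an unadjusted p under 0.05 there were 0 chains higher, against 15.8% of all genes, and 6 lower, against 5.77%. No chain had 1K1C wholly above 2K1C, against 7.39% of all genes, and Col22a1 alone had it wholly below, against 2.37%. The median difference was -0.12, and 0.01 over all genes. Among chains well above background on all 4 arrays of both groups, the largest differences by class were -1.55 ± 0.86 for Col11a1 (adjusted p = 0.302), -1.49 ± 0.63 for Col4a5 (0.184) and -1.44 ± 0.80 for Col8a1 (0.304). Of the chains below background on some 1K1C arrays, Col9a3 differed by -2.02 ± 0.92 (0.212), Col9a2 by -2.01 ± 0.72 (0.123), Col20a1 by -1.06 ± 0.46 (0.197) and Col22a1 by -1.04 ± 0.38 (0.125). With 1K1C replicate 2 and the other 3 of the 4 arrays left out, the differences were -0.65 for Col11a1, -0.91 for Col4a5, -0.50 for Col8a1, -1.34 for Col9a3, -1.34 for Col9a2, -0.60 for Col20a1 and -0.83 for Col22a1. Slide and group cannot be told apart in this comparison. Without 1K1C replicate 4, 4 chains were called lower in 1K1C, Col9a2, Col20a1, Col22a1 and Col27a1, with 1896 of all genes called.

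Pairs of chains were then followed array by array, as deviations from their group means over the 20 arrays. Most were pairs that share a helix or a fibril. Col12a1 and Col14a1 both encode chains that coat fibrils, Col15a1 and Col18a1 encode related but separate collagens, and Col1a1 with Col4a1 was taken across classes. Of 11 pairs measured, 5 varied together at an adjusted p under 0.05 (two-sided permutation within groups, 100000 resamples, Benjamini-Hochberg over the 11 pairs). The median r over all 496 pairs of the 32 chains was 0.30, and 8.87% of these pairs had r over 0.8. The arrays share their scaling, and these values describe how the chains vary together. Col1a1 with Col3a1 had r = 0.95 (permutation p = 1e-05, the smallest that the resamples can give, adjusted 5.5e-05) and Spearman's rho of 0.93 (p = 1e-05, permutation, adjusted 5.5e-05). Without its 2 most extreme arrays r was 0.93, and over the 16 arrays 0.91. Col6a1 with Col6a2 had r = 0.95 (permutation p = 1e-05, adjusted 5.5e-05) and rho of 0.92 (permutation p = 1e-05), with r of 0.89 without 2 arrays and 0.97 over the 16. Col4a1 with Col4a2, the head-to-head pair, had r = 0.89 (permutation p = 5e-05, adjusted 0.000183) and rho of 0.92 (permutation p = 0.00011), with r of 0.82 and 0.87. Col5a1 with Col5a2 had r = 0.84 (permutation p = 0.00049, adjusted 0.00108) and rho of 0.66 (permutation p = 0.00427), with r of 0.65 and 0.87. Col1a1 with Col1a2 had r = 0.82 (permutation p = 0.00034, adjusted 0.000935) and rho of 0.65 (permutation p = 0.00958). Over the 16 arrays its r was 0.61 (permutation, adjusted p = 0.0502), and 0.68 without 2 of the 20, so this relation rests in part on those arrays.

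The other 6 pairs did not pass. Their r was 0.41 for Col3a1 with Col5a2 (permutation, adjusted p = 0.291), 0.38 for Col4a3 with Col4a4 (0.291) and 0.31 for Col6a1 with Col6a3 (0.482). It was 0.23 for Col12a1 with Col14a1 (permutation, adjusted p = 0.519), -0.17 for Col1a1 with Col4a1 across classes (0.632) and -0.05 for Col15a1 with Col18a1 (0.861). For the last 2 of these, Col1a1 with Col4a1 and Col15a1 with Col18a1, the 4 arrays lay apart from the rest, and over the 16 arrays r was 0.65 and 0.60 (permutation, adjusted p = 0.149 for both). Over the 16 arrays without their own 2 most extreme arrays, r was -0.01 and 0.03.

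**Figure D5:**
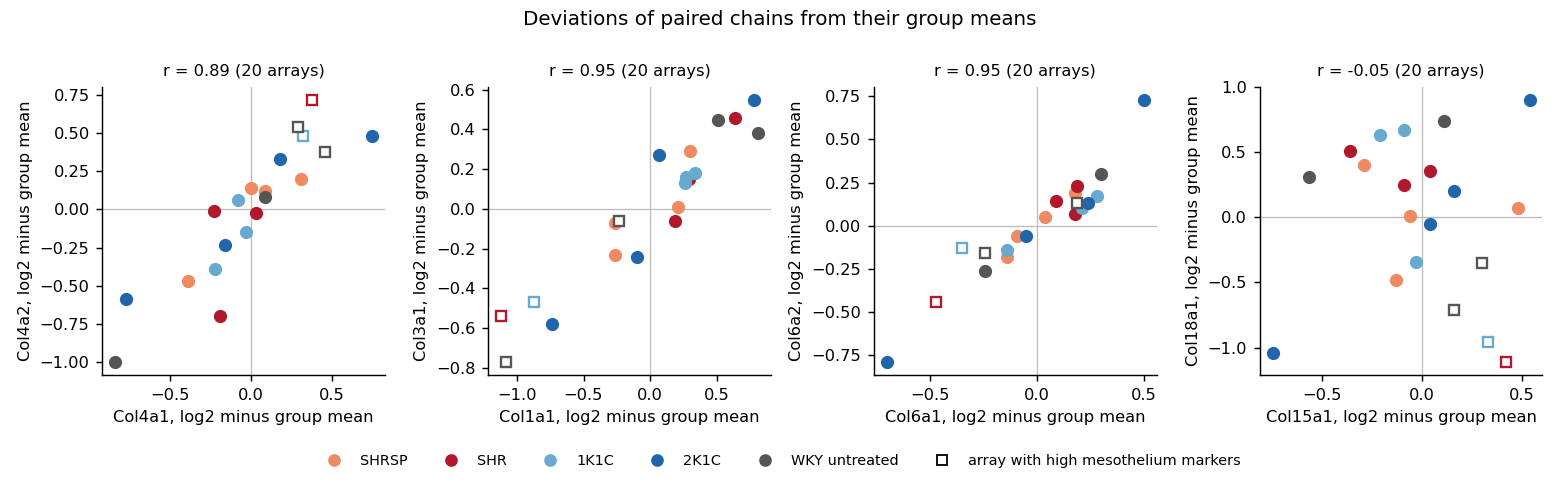
Deviation of each array from its group mean (log2) for 4 pairs of chains, 1 point per array, coloured by group, with open squares for the 4 arrays with high mesothelium markers. Points lie along a line for Col4a1 with Col4a2 (r = 0.89), Col1a1 with Col3a1 (0.95) and Col6a1 with Col6a2 (0.95), and do not for Col15a1 with Col18a1 (-0.05), where the squares have positive deviations of Col15a1 and negative ones of Col18a1.

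The genes that fold, cross-link, bind and degrade collagen were described from 5 lists with 48 measured genes, and 0 were called over the 20 arrays in any of the 6 comparisons. Of all genes, 50.5% in SHRSP, 52.6% in SHR, 65.4% in 1K1C and 53.5% in 2K1C were above untreated WKY. Of 18 folding genes, 17 were above untreated WKY in SHRSP (median 0.31), 17 in SHR (0.35), 17 in 1K1C (0.29) and 14 in 2K1C (0.21). Those with all 4 arrays above all of untreated WKY were 8 in SHRSP, 4 in SHR, 2 in 1K1C and 1 in 2K1C, where 6.36%, 3.34%, 2.28% and 3.69% of all genes were. Plod2, a lysine hydroxylase of collagen, had the largest difference in SHRSP, 1.2 ± 0.46 (adjusted p = 0.204), in SHR, 0.80 ± 0.46 (0.475), and in 2K1C, 1.18 ± 0.46 (0.167). P3h2, a proline hydroxylase of collagen, led the list in 1K1C at -0.90 ± 0.72 (0.684) and in 1K1C against 2K1C at -1.56 ± 0.72 (0.218), which were 0.09 and -0.71 without the 4 arrays. Glt25d2, which the array names for a collagen galactosyltransferase, led in SHRSP against SHR at 0.80 ± 0.28 (0.76).

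Of 8 genes of secretion and cross-linking, Lox, lysyl oxidase, which cross-links collagen and elastin, had the largest difference from untreated WKY in each group. It was 1.85 ± 0.62 in SHRSP (adjusted p = 0.137), 1.61 ± 0.62 in SHR (0.232), 0.69 ± 0.62 in 1K1C (0.711) and 1.73 ± 0.62 in 2K1C (0.148). Over the other 16 arrays it was 0.92 in SHRSP, 1.12 in SHR, 0.43 in 1K1C and 0.81 in 2K1C. Between the operations Lox differed by -1.04 ± 0.62 in 1K1C against 2K1C (0.338; -0.39 without the 4 arrays), and Tll1, a procollagen protease, by -0.36 ± 0.20 in SHRSP against SHR (1). Of 8 receptor genes, the integrin gene Itga10 led in SHRSP at 1.31 ± 0.48 (0.176), with 1 of 4 untreated WKY arrays well above background. Without the 4 arrays of high mesothelium markers Itga10 differed by 0.96 in SHRSP. It also led in SHRSP against SHR at 1.04 ± 0.48 (1) and in 1K1C against 2K1C at -1.19 ± 0.48 (0.166; -0.79 without the 4 arrays). Itga1, the integrin chain of smooth muscle for collagen, led in SHR at 0.63 ± 0.34 (0.437; 1.23 without the 4 arrays). Mrc2, a receptor that takes up collagen, led in 1K1C at 0.61 ± 0.20 (0.315), and Ddr1, a receptor kinase for collagen, in 2K1C at 0.85 ± 0.33 (0.166; 0.44 without the 4 arrays).

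Of 4 degradation genes, the membrane protease gene Mmp15 led in SHRSP at -0.40 ± 0.25 (adjusted p = 0.45) and in SHR at -0.39 ± 0.25 (0.541; -0.66 without the 4 arrays). Mmp2, gelatinase A, led in 1K1C at 0.45 ± 0.20 (0.51) and in 2K1C at 0.23 ± 0.20 (0.488; 0.08 without the 4 arrays). Mmp14 led in SHRSP against SHR at 0.23 ± 0.22 (1), and Ctsk, the collagen-cutting cathepsin K, in 1K1C against 2K1C at 0.46 ± 0.22 (0.24). Of 10 basement membrane partners, the laminin gene Lama5 led in SHRSP at 1.0 ± 0.50 (0.323), in 2K1C at 0.98 ± 0.50 (0.255) and in 1K1C against 2K1C at -1.17 ± 0.50 (0.185; -0.77 without the 4 arrays). Without the 4 arrays Lama5 differed by 0.68 in SHRSP and 0.66 in 2K1C. Nid2, a nidogen that joins laminin to type IV collagen, led in 1K1C at 0.55 ± 0.35 (0.652).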

How the data were processed

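The arrays were placed in groups by their titles. The deposited scanner files hold spot intensity after background subtraction and detrending within the array. Agilent Feature Extraction 10.7.3.1 made them, as the submitters' processing notes and the file headers state. The deposited value table held the same intensities on a linear scale without centring, with column medians of 59.7 to 133.5. The number of arrays, not a read depth, limits the precision. Control spots and 301 to 684 outlier spots an array were set aside, 0 spots were saturated, and 66.5% to 71.7% of spots were well above background. Levels are log2 of the deposited signal minus the 75th percentile of the array (574.5 to 1193 before the logarithm), averaged over spots of a probe. The filter on dim probes kept 18899 probes, and a gene took its brightest probe by mean level. Probe positions are those of the array design (rn4), and 18355 of 30367 probe accessions matched the RefSeq table used to update names.

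The 20 arrays entered 1 linear model (limma 3.58.1, R 4.3.3) with moderated two-sided tests of 6 comparisons, each adjusted by Benjamini-Hochberg over all genes. The p-values measure the spread between the arrays of a group. Correlations were computed with numpy 2.4.6 and permuted within groups. Both steps were tested on simulated data. Values by array are given for chains that were called, for the largest difference of each class and comparison without a call (among chains well above background on all 4 arrays of both groups), and for 14 chains fixed by name. Of each pathway list the called genes, or else the largest difference, are named. The largest difference of 1 list in 2 comparisons is not reported here. The members and lists were chosen with earlier results of these data known. The alternatives were other normalizations, filters, probe rules and models, array weights, slide and replicate blocks, and leaving out arrays. The setting without the 4 arrays of high mesothelium markers was chosen after seeing the data.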

Additional observations from a re-analysis of the deposited data

Results flagged for a closer look

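Among 160 sets of 4 arrays (32 chains in 5 groups), 15 held an array farther from the other 3 than Dixon's 95% critical value allows. That is 9.38%, where chance gives about 1 in 20 for independent sets. The sets are not independent, since they share their arrays and some chains vary together. SHR replicate 1, an array with high mesothelium markers, held 4 of the 15. It had levels of -1.04 for Col4a5 (1.07 to 1.23 in the other 3 SHR arrays), 1.3 for Col18a1 (2.66 to 2.92), 2.28 for Col6a1 (2.85 to 2.94) and -2.91 for Col17a1 (-4.0 to -3.82). 1K1C replicate 2, another of these arrays, had 5.05 for Col1a1 (6.18 to 6.26 in the other 3) and 6.28 for Col3a1 (6.88 to 6.93). 1K1C replicate 4 had 3.04 for Col16a1 (2.08 to 2.19). 2K1C replicate 4 had -5.52 for Col4a4 (-4.73 to -4.62) and -4.26 for Col9a1 (-3.8 to -3.72), and 2K1C replicate 2 had -1.52 for Col19a1 (-2.04 to -1.96). SHRSP replicate 3 had -1.85 for Col6a3 (-2.54 to -2.43) and -3.82 for Col22a1 (-4.53 to -4.41), and SHRSP replicate 4 had 0.15 for Col4a2 (0.74 to 0.82). SHR replicate 2 had -4.12 for Col4a4 (-4.34 to -4.33). Untreated WKY replicate 4 had -1.65 for Col27a1 (-2.86 to -2.66). The part of other cells in these values was not tested.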

How the results depend on the processing

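The single called chain, Col4a5 in SHRSP against untreated WKY, remained called with quantile normalization, normexp background correction, median scaling, the deposited value table and array weights. The deposited value table holds the same intensities as the scanner files, so it is not a separate check. With array weights 5540 of all genes were called in SHRSP. The count of called chains in SHRSP was 0 with no filter on dim probes (Col4a5 adjusted p = 0.0706), with probes well above background on all 20 arrays (27 chains, 0.0511), with the mean of all kept probes (0.0509), with only the 2 groups fitted (0.0723), and without the 4 arrays with high mesothelium markers (0.122). Replicate numbers did not pair the arrays: of 40 pairs of same-numbered arrays, 13 had a correlation of deviations over 0.1. With a replicate block the count in SHRSP was 0 (adjusted p = 0.0722), and the block changed no other call of a chain. Leaving out 1 array at a time gave 0 to 1 chains in SHRSP, 0 in SHR, 0 in 1K1C, 0 to 2 in 2K1C (2 without untreated WKY replicate 4, with 870 of all genes), 0 in SHRSP against SHR and 0 to 4 in 1K1C against 2K1C (4 without 1K1C replicate 4). With array weights the counts were 15 in SHRSP, 18 in SHR, 1 in 1K1C and 14 in 2K1C, and the cause was not tested. The weights of untreated WKY replicates 1 to 4 were 0.26, 3.79, 1.9 and 0.48. Replicates 2 and 3, with the highest of these, are arrays with high mesothelium markers, and SHR replicate 1, another such array, had 0.31. The weighted fit and the fit without the 4 arrays thus lean on different untreated WKY arrays. The slide as a block left 0 chains called in 1K1C against untreated WKY and in SHRSP against SHR. It could not change these comparisons, since the slide of an array is fixed by its group. Col11a1 in SHR ran from -0.2 to 0.92 with 1 array left out (-0.12 without untreated WKY replicate 2 and -0.2 without replicate 3), and was -0.61 in SHR and -0.55 in SHRSP without the 4 arrays. The correlation of Col15a1 with Col18a1 was 0.15 with quantile normalization, 0.15 without SHR, 0.09 without 1K1C, 0.04 without untreated WKY and 0.60 without the 4 arrays. That of Col1a1 with Col4a1 was 0.04 with quantile normalization, 0.12 without untreated WKY and 0.65 without the 4 arrays, and that of Col6a1 with Col6a3 was -0.13 without 2K1C. The cause of these turns was not tested. Col3a1 with Col5a2 passed with quantile normalization (r = 0.65, permutation, adjusted p = 0.0278). The pairs that passed numbered 4 to 6 over the settings. Of all genes, 303 in SHR and 393 in SHRSP were called, against 102 and 161 with only the 2 groups fitted and 118 and 119 without the 4 arrays. In 2K1C 2 genes were called, against 69 with normexp. Scaling to the array median moved the median of all genes to 0.12 in SHR and 0.18 in 1K1C, with chain medians of 0.35 and 0.34. With 4 arrays a group, whose within-group SD for Col11a1 was 1.31, the design limits what can be told of such chains.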

Other observations

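Second probes that also passed the filter ran with the used probe over the arrays, as deviations from group means, at r of 0.98 and 0.99 for Col11a1, 0.97 for Col14a1, 0.96 for Col1a1, 0.95 for Col5a2, 0.93 for Col11a2, 0.91 for Col12a1, 0.90 for Col4a1 and 0.69 for Col6a6. These values describe probes of 1 gene on shared arrays. They leave out probes of measured chains that did not pass the filter. The other probes of Col9a1, at mean levels of -7.05 and -6.47, were well above background on 0 arrays. So was the other probe of Col17a1, at -7.59. The used probes of Col9a1 and Col17a1 were well above background on every array, so the probes of these genes differ in detection. A further Col12a1 probe, at -5.46, was well above background on 11 arrays.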
